A study of Arabidopsis thaliana with 6 samples.

Results

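AT3G28750, AT3G28780 and AT3G28830 are protein-coding loci that lie close together on chromosome 3 of Arabidopsis thaliana. They go here under the working name of a DUF1216 cluster, after a protein domain of unknown function. The annotation tables used here hold no domain names, so the name was not checked for any of the 3 loci, and no function is known for them here. Each locus had 1 probe set assigned to it alone, which makes them 3 of the 13286 loci that a probe set of the array names alone. The loci were chosen by their place and by their signal in wild type and overexpressor, which was lower in the overexpressor for all of them. The difference between the groups is therefore given for these loci as a description, with no test.

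The arrays measured total RNA from flowers at stage 15, an open flower whose pollen has been released. One group was wild-type Columbia and the other was transgenic plants overexpressing miR159a, with 3 arrays each, lettered a, b and c. Both groups were flowers of the same stage. The labels name no ecotype for the overexpressor plants. They give neither a promoter for the transgene, nor the number of lines, nor any pooling of plants. They also do not say that the letters stand for separate plants, and so the p-values given below cover no more than the spread among these arrays, part of which may be technical.

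MicroRNAs of the miR159 family pair with transcripts of MYB transcription factors and lower them. In Arabidopsis these MYB factors act in the anther, where the tapetum feeds the developing pollen, and relatives of theirs act in the pollen tube. Plants with too much miR159 are known for poor anther development and reduced male fertility. In bulk samples such as whole flowers, fewer cells of a type and less RNA per cell cannot be told apart.

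The deposited signals are linear intensities that the authors had already scaled, with array medians from 85.3 to 96.9. Of 5 listed floral organ identity loci and 7 listed MYB targets of miR159, 0 had a probe set annotated to them alone. Probe sets annotated to no gene or to several genes were not searched for them. Neither the tissue nor the overexpression was therefore checked through these loci. The carpel genes CES and ALC had mean wild-type signals of 389 and 342. The arrays lettered a stood apart in both groups in the ratio of 5′ to 3′ control signal for actin, which was 0.656 and 0.653 on them against 0.326 to 0.463 elsewhere. For ubiquitin the ratio was 0.807 and 0.886 on them against 0.461 to 0.560. For GAPDH they did not stand apart, with 0.801 and 0.774 against 0.694 to 0.831. The log2 differences of the 3 genes, and the adjusted p of the neighbours, pollen loci and CES that passed, are also given without both arrays lettered a. Of 17059 probe sets tested with limma, 2.17% had an adjusted p under 0.05 and were lower, and 0.135% were higher, in plants overexpressing miR159a, which was 370 and 23 probe sets, or 570 and 71 with the letter as a paired block.

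AT3G28750 had wild-type signals of 3962.6 on array a, 2745.9 on b and 2035 on c. Its overexpressor signals were 179.4, 457.1 and 39.6. The groups did not overlap, and the lowest wild-type array was well above the highest overexpressor array. The means were 2914.5 ± 975 (SD, n = 3) and 225 ± 213, a ratio of 12.9 between wild type and overexpressor. On the scale log2(signal + 16), which understates differences of dim probe sets, the overexpressor minus wild-type difference was -4.03 (SE 0.68).

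AT3G28830 gave 1724.7, 907.5 and 919.3 in wild type and 50.6, 174.1 and 17.9 in the overexpressor. The wild-type arrays b and c were nearly equal and a was highest, while in the overexpressor b was highest and c lowest, as for AT3G28750. The means were 1184 ± 468 (SD, n = 3) and 80.9 ± 82.4, and their ratio was 14.6. The log2 difference was -3.92 (SE 0.57).

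AT3G28780 gave signals of 137.6, 95.8 and 66.5 in wild type and 4.9, 4.3 and 16.6 in the overexpressor. Again no overexpressor array reached a wild-type array, but here c was the highest overexpressor array. The means were 99.97 ± 35.7 (SD, n = 3) and 8.60 ± 6.93, with a ratio of 11.6. The log2 difference of -2.23 (SE 0.28) is smaller than for the other 2 loci, although the ratio of the means is of like size, because 2 of the overexpressor signals lay below the 16 that was added. With 1 added in place of 16 the difference was -3.56, and with 64 it was -1.16.

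**Figure D1:**
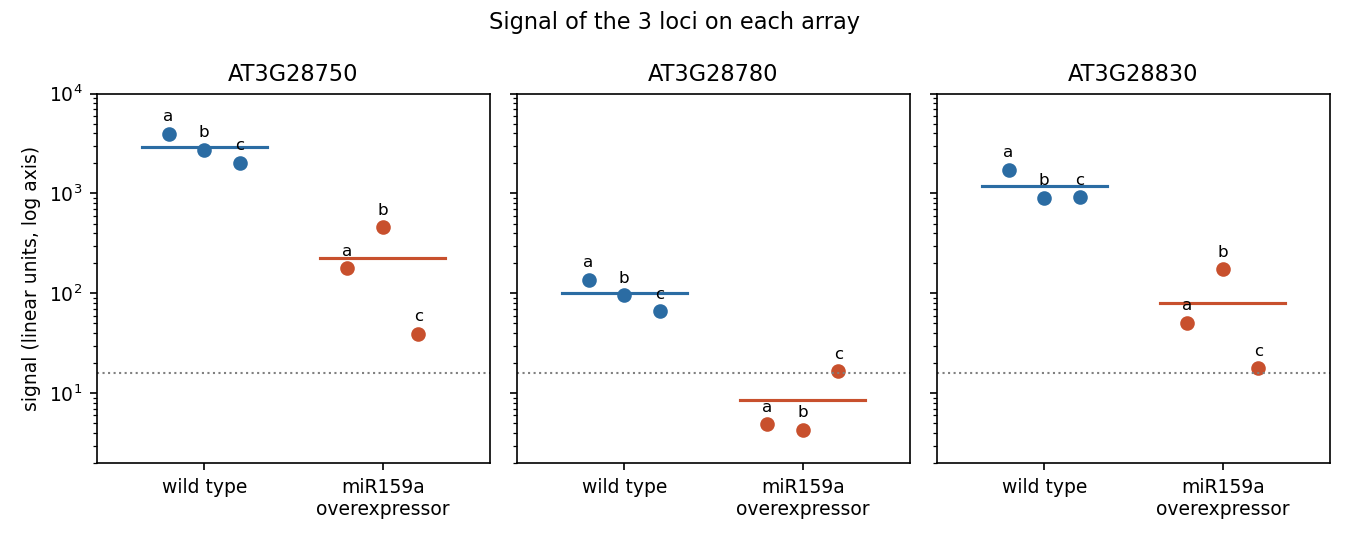
Signal of AT3G28750, AT3G28780 and AT3G28830 on each of the 6 arrays, in linear units on a log axis, with points lettered by array, horizontal bars for the group means and a dotted line at 16, the value added before log2. For each locus the 3 overexpressor points (red) lie below the 3 wild-type points (blue), and for AT3G28780 the overexpressor signals of 4.9 and 4.3 lie under the dotted line.

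All 3 loci passed the filter that left out the dimmest 25% of probe sets, and in all 3 every overexpressor array was below every wild-type array. That order held for 7.20% of all tested probe sets, and nothing is read from the members' count, since their signals chose them. Without both arrays lettered a the log2 differences were -3.88 for AT3G28750, -1.90 for AT3G28780 and -3.53 for AT3G28830. With 1 array left out at a time they ran from -4.76 to -3.22 for AT3G28750, from -2.45 to -2.0 for AT3G28780 and from -4.59 to -3.35 for AT3G28830.

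Read between arrays of the same letter, the difference varied from letter to letter. For AT3G28750 it was -4.35 between the a arrays, -2.55 between the b arrays and -5.21 between the c arrays. For AT3G28830 it was -4.71, -2.28 and -4.79. For AT3G28780 it was -2.88, -2.46 and -1.34. The smallest difference was thus between the b arrays for AT3G28750 and AT3G28830 and between the c arrays for AT3G28780.

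Within the groups, AT3G28750 and AT3G28830 varied together. Their deviations from the group means on the log2 scale had r = 0.96 over the 6 arrays. In overexpressor b both were above their group mean, by 1.45 and 1.33, and in overexpressor c both were below it, at -1.63 and -1.15. AT3G28780 had r = -0.36 with AT3G28750 and -0.24 with AT3G28830, and its deviations in overexpressor b and c were -0.24 and 0.44. Over the 3 wild-type arrays alone its r was 0.9989 with AT3G28750 and 0.86 with AT3G28830, and over all 6 arrays it was 0.82 and 0.86, so the negative values rest on the overexpressor arrays. In wild type the 3 loci were highest on array a, at 0.49 for AT3G28750, 0.45 for AT3G28780 and 0.60 for AT3G28830. These correlations share the arrays and their scaling, and 2 of the 3 overexpressor signals of AT3G28780 lie below the value added, so little is read from its order.

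**Figure D2:**
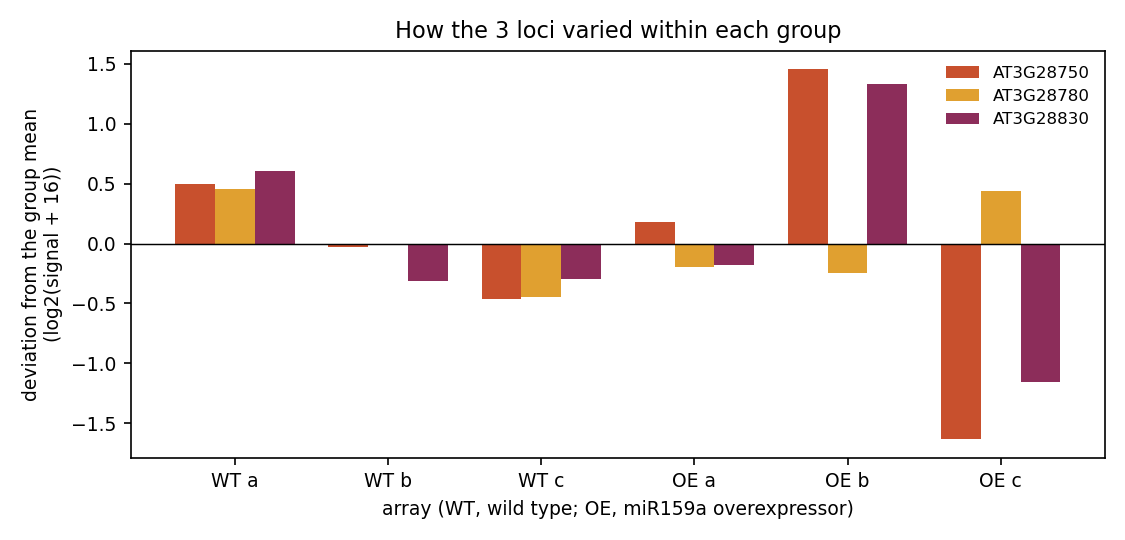
Deviation of each locus from its group mean on each array, on the scale log2(signal + 16), for wild type (WT) and miR159a overexpressor (OE). The bars of AT3G28750 and AT3G28830 are 1.45 and 1.33 on OE b and -1.63 and -1.15 on OE c, while those of AT3G28780 are -0.24 and 0.44.

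The loci around the 3 genes were read next, in the gene order of the RefSeq table of the TAIR10.1 assembly. The genome build behind the array is not given here, and coordinates are left out for that reason. Between AT3G28750 and AT3G28780 that table holds 2 loci, AT3G28760 and AT3G28770, and between AT3G28780 and AT3G28830 it holds 5. The stretch from AT3G28600 to AT3G29000 has 66 loci, of which 19 other than the 3 genes had a probe set of their own, and 14 of these passed the filter. Of the 14 tested, 3 were lower, 0 were higher and 11 did not pass, against 2.17% lower and 0.135% higher over all tested probe sets. At an unadjusted p under 0.05 limma gave 3 lower and 1 higher, against 5.73% lower and 3.05% higher over all tested probe sets, so the 1 higher is near the background. The median log2 fold change of the 14 was -0.05, beside 0.04 for all tested probe sets.

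AT3G28790 lies beside AT3G28780, with 1 locus between them. Its signals were 694.6, 513 and 421.7 in wild type and 73, 103.1 and 43.9 in the overexpressor. The groups did not overlap, and overexpressor b was again the highest and c the lowest of its group. AT3G28790 fell by 2.67 (log2, SE 0.28, 3 arrays in each group, adjusted p = 0.00914 with limma). Its deviations within the groups had r = 0.99 with the mean of the 3 genes. AT3G28750 and AT3G28830 dominate that mean, and the share of all tested probe sets with such an r is not given here. The closest loci by this measure, all outside the stretch, had r from 0.9953 to 0.9999.

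AT3G28980 lies farther along, with 30 loci between it and AT3G28830. It gave 692.7, 497.7 and 467.7 in wild type and 70.1, 74.7 and 22 in the overexpressor. The groups were separate, with overexpressor a and b close to each other and c lowest. AT3G28980 fell by 3.07 (SE 0.34, limma adjusted p = 0.0104), and its deviations had r = 0.88 with the mean of the 3 genes. Without wild-type replicate b the adjusted p was 0.0637 for both AT3G28790 and AT3G28980, with log2 fold changes of -2.70 and -3.13, and both passed under every other alternative run, including 0.0454 and 0.0401 without the arrays lettered a.

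AT3G28850, which follows AT3G28830 after 1 intervening locus, had the smallest of the called changes. Its signals were 160.5, 127.4 and 109 in wild type and 64.3, 55.8 and 44.4 in the overexpressor, which did not overlap. It fell by 1.06 (log2, SE 0.19, limma adjusted p = 0.0276). The call ended without wild-type replicate a (adjusted p = 0.0845) or b (0.121), without overexpressor replicate a (0.0535), b (0.0698) or c (0.126), and without both arrays lettered a (0.0800), with log2 fold changes from -1.18 to -0.93 when a single array was left out.

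A further probe set, described after its values were seen, is assigned at once to 2 loci of the interval between AT3G28750 and AT3G28830. No gene is therefore named from this probe set. It read 817.2, 313.9 and 235.8 in wild type and 19.1, 39.4 and 3.6 in the overexpressor. Wild-type array a was far above b and c, and the groups did not overlap. It fell by 3.61 (SE 0.50, limma adjusted p = 0.0127), and the adjusted p was 0.0659 without wild-type replicate b and 0.0568 without both arrays lettered a. The other probe sets assigned to 2 loci of the stretch at once had log2 fold changes of 0.05 and 0.17. They were not called (limma adjusted p = 0.989 and 0.936). Loci that share a probe set may be similar in sequence. Whether the probe sets of AT3G28750, AT3G28780, AT3G28790 and AT3G28830 also read transcripts of their neighbours was not tested.

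Loci interleaved with these were not called. AT3G28760, the next locus after AT3G28750, had signals of 104.5, 98.3 and 108.3 in wild type and 175.3, 118 and 129.6 in the overexpressor. All its overexpressor arrays were above all its wild-type arrays, but its log2 fold change of 0.37 (SE 0.18) did not pass (limma adjusted p = 0.634). AT3G28840, the next after AT3G28830, overlapped between the groups, with 31.0 to 67.2 in wild type and 20.8 to 61.6 in the overexpressor, and a log2 fold change of -0.39 (adjusted p = 0.903). AT3G28770, between AT3G28760 and AT3G28780, was below the filter and was not tested. It read 14.2, 9 and 12.5 in wild type and 2.8, 4.4 and 1.4 in the overexpressor, all below the 16 added, so its log2 difference of -0.56 is understated.

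The other 9 tested loci of the stretch had log2 fold changes from -0.38 to 0.43, and 0 of them passed. On the side before AT3G28750 these were AT3G28670 at -0.03, AT3G28680 at 0.11, AT3G28690 at 0.25, AT3G28700 at -0.0017 and AT3G28720 at 0.18. On the side after AT3G28850 they were AT3G28900 at -0.07, AT3G28940 at -0.38, AT3G28950 at -0.07 and AT3G28960 at 0.43. AT3G28960 had all overexpressor arrays above all wild-type arrays, at 29.7, 25.1 and 31.9 against 21.3, 16.6 and 14.4, with adjusted p = 0.416. AT3G28600, AT3G28610, AT3G28620 and AT3G28870 were below the filter, with log2 differences from -0.18 to -0.01 and overlapping groups.

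**Figure D3:**
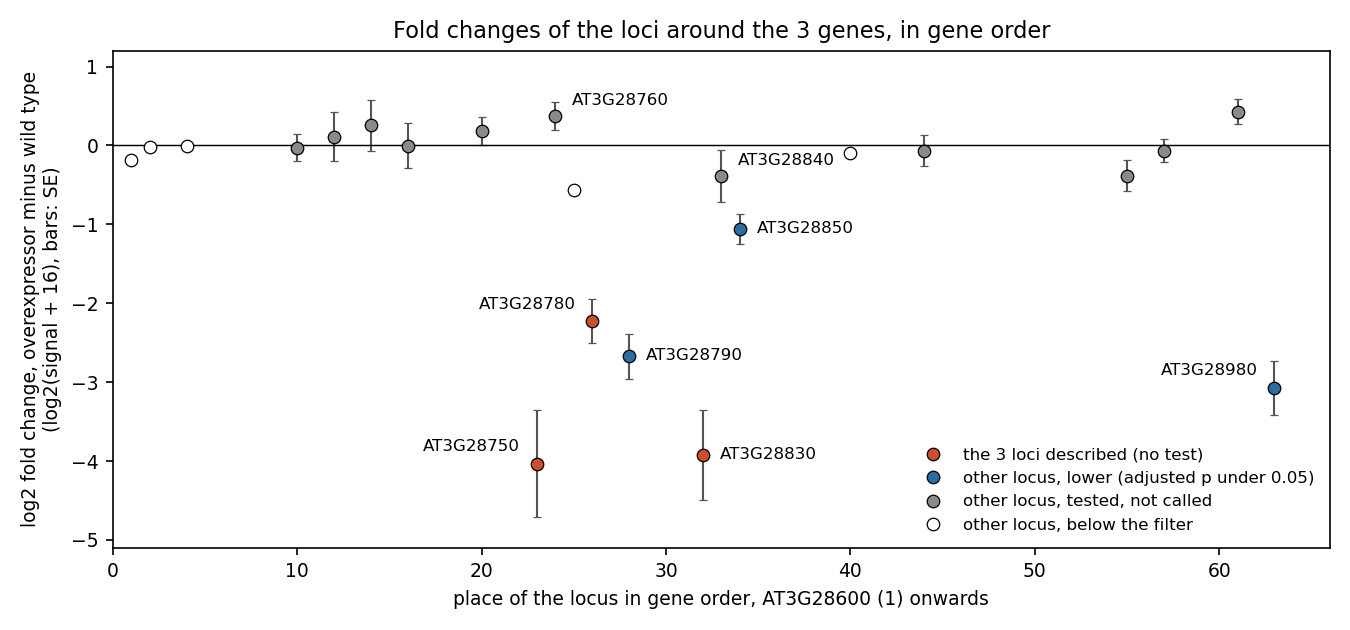
Log2 fold change, overexpressor minus wild type on the scale log2(signal + 16), of each locus with its own probe set, by its place in gene order from AT3G28600 onwards, with SE bars for those that passed the filter. AT3G28750, AT3G28780 and AT3G28830 (red) lie at -4.03, -2.23 and -3.92, the loci AT3G28790, AT3G28850 and AT3G28980 (blue) at -2.67, -1.06 and -3.07, and AT3G28760 and AT3G28840 among them at 0.37 and -0.39.

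Transcripts of mature pollen were lower in the same arrays. Of 27 listed loci of mature pollen and the pollen tube, 13 had a probe set and all 13 were tested: 9 fell, 0 rose and 4 did not pass, against 2.17% lower over all tested probe sets, and their median log2 fold change was -1.90 beside 0.04. At an unadjusted p under 0.05 limma gave 11 lower and 0 higher, against 5.73% and 3.05%. The pollen tube receptor kinase gene AT4G39110, which is BUPS1, had a log2 fold change of -3.19 (limma adjusted p = 0.0107). Other receptor kinase genes of the pollen tube also fell, ANX2 at -3.28, AT2G21480 at -1.90 and ANX1 at -1.69. So did the pollen extensin-like genes AT1G49490, AT3G19020, AT2G15880 and AT4G33970, with log2 fold changes from -3.67 to -2.19, and the pollen actin gene ACT12 at -1.82. The pollen MADS-box genes AGL66, AGL104, AGL30 and AGL65 had log2 fold changes of -0.91, -0.77, -0.37 and -0.12. The count of 9 was 3 when wild-type array a was left out, 0 when b was, 2 without overexpressor replicate a, 2 without overexpressor replicate c and 0 without both arrays lettered a. In both settings with 0 called, 11 pollen loci passed the filter. At an unadjusted p under 0.05 limma gave 10 of these lower without wild-type array b, against 4.81% of all tested probe sets, and 9 without both arrays lettered a, against 6.17%. Of the 9 called pollen loci, ANX1 was below the filter without the arrays lettered a, and the other 8 had log2 fold changes from -2.91 to -1.51 with adjusted p from 0.0600 for BUPS1 to 0.246 for AT2G15880.

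The summed signal of the 13 pollen probe sets was 1594.4 to 3916.6 in wild type and 177.6 to 546.1 in the overexpressor, with 0 of them at a signal of 0 on any array. Set beside the 3 genes array by array, their median as a percent of the wild-type mean was 153% on wild-type a, 87.8% on b and 63.2% on c. AT3G28750 stood at 136%, 94.2% and 69.8%, AT3G28780 at 138%, 95.8% and 66.5%, and AT3G28830 at 146%, 76.7% and 77.7%. All thus had their highest wild-type signal on array a.

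In the overexpressor the pollen median was 5.65% of the wild-type mean on array a, 26.3% on b and 5.99% on c. AT3G28750 stood at 6.16%, 15.7% and 1.36%, and AT3G28830 at 4.27%, 14.7% and 1.51%. On array b the 2 loci and the pollen median were each highest. The 2 loci were lower than the pollen median on arrays b and c. On array a AT3G28830 was lower than it and AT3G28750 higher. AT3G28780 stood at 4.90%, 4.30% and 16.6%. AT3G28790 retained 13.4%, 19.0% and 8.08%, and AT3G28980 12.7%, 13.5% and 3.98%. The part of pollen content in the signals of these loci was not tested.

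**Figure D4:**
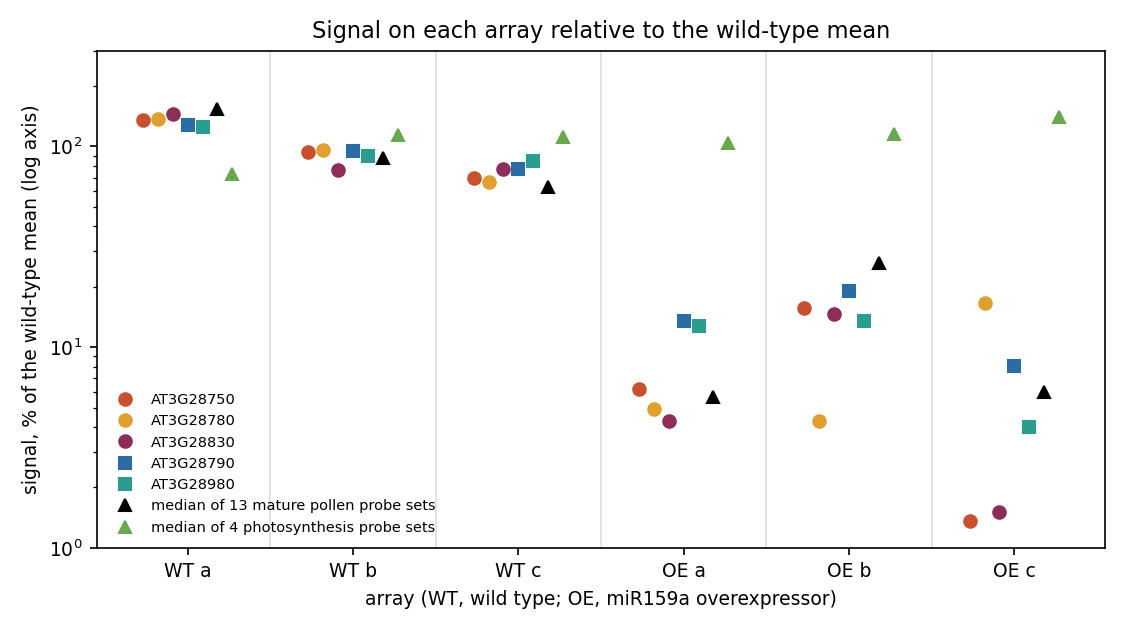
Signal on each array as a percent of the wild-type mean, on a log axis, for AT3G28750, AT3G28780, AT3G28830, AT3G28790 and AT3G28980 and for the medians of 13 mature pollen and 4 photosynthesis probe sets, in wild type (WT) and miR159a overexpressor (OE). On OE b AT3G28750, AT3G28830 and the pollen median stand at 15.7%, 14.7% and 26.3%, on OE c at 1.36%, 1.51% and 5.99%, and the photosynthesis median stays between 73.3% and 140% on all 6 arrays.

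Among the tested markers of green tissue and carpel 0 fell, also at an unadjusted p under 0.05 with limma. Over all tested probe sets 2.17% were lower and 0.135% higher, or 5.73% and 3.05% at that unadjusted p. For lists this short a count of 0 lower is near these shares, so nothing is read from it. The photosynthesis genes PSBY, LHCB4.2, PSAE-1 and PSAN, with a summed signal of 7600.4 to 11267.6 in wild type and 10123.1 to 14313.7 in the overexpressor, had log2 fold changes from 0.23 to 0.35, and 0 of 4 passed (0 at an unadjusted p under 0.05 with limma). Of 6 tested carpel, ovule and transmitting tract genes 1 rose, namely CES, whose product acts in the transmitting tract, at 0.79 (adjusted p = 0.0439), and their list summed to 965.9 to 1131.3 in wild type and 1379.1 to 1507.8 in the overexpressor over 7 probe sets. The other 5 tested did not pass, with NGA2, ALC and NGA4 at 0.37, 0.32 and 0.15 and, named after their values were seen, SPT at 0.06 and NGA1 at -0.13. Most of the higher sum came from CES, with means of 389 in wild type and 681 in the overexpressor, and from ALC, with 342 and 430.5. The adjusted p of CES was 0.0711 to 0.191 when any 1 array was left out and 0.108 without both arrays lettered a. The reference genes AT4G34270, AT2G28390, PEX4 and GAPC2 had log2 fold changes of 0.33, 0.18, 0.08 and -0.05, and 0 of 4 passed (0 at an unadjusted p under 0.05 with limma).

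The sperm cell histone gene MGH3 and the tapetum genes AMS and AT5G07230 were below the filter and were not tested. MGH3 read 79.3, 28.6 and 24.7 in wild type and 2.2, 9.3 and 2.7 in the overexpressor, with no overlap. The 2 tapetum probe sets summed to 9.5 to 20 in wild type and 8.3 to 14.3 in the overexpressor, near the bottom of the scale in both groups.

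The loci most like the 3 genes were found by the correlation of their log2 signals with the mean of the 3 genes. AT3G28750 and AT3G28830 dominate that mean, and over the 6 arrays the difference between the groups dominates the correlation, so it is a description of shared pattern and no test. An r over 0.95 was reached by 338 of the 17059 tested probe sets, or 1.98%, and 288 of these were among the 370 called lower. The 10 loci with the highest r, from 0.9981 to 0.9995, were AT2G47050, AT3G20530, AT4G39110, AT1G49290, AT5G27870, AT1G19500, AT3G54800, AT3G62710, AT2G26490 and AT5G07420. AT4G39110 is the BUPS1 gene named above.

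AT2G47050, the closest, read 3059.7, 1842.3 and 1679.3 in wild type and 196.9, 396.5 and 115.1 in the overexpressor, with array a highest in wild type and b highest in the overexpressor. By the deviations within groups the 5 closest were AT3G54800, LCR72, which encodes a small cysteine-rich protein, AT3G05610, AT2G47050 and scpl38, a serine carboxypeptidase-like gene, with r from 0.9953 to 0.9999. AT3G54800 had the same order of arrays within the overexpressor as AT3G28750 and AT3G28830, with 37.1, 103.3 and 12.5. Over the 6 arrays the neighbour AT3G28790 had r = 0.9975 with the mean of the 3 genes, and the shared probe set 0.9912. For AT3G28980 the r was 0.9891, for AT3G28850 0.97 and for AT3G28770, which was below the filter, 0.97. The most negative values among the neighbours were -0.87 for AT3G28960 and -0.78 for AT3G28760.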

How the data were processed

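Total RNA of 6 flower samples was measured on 1 array each. The authors deposited a linear intensity for each of 22810 probe sets and array. What software, background correction and scaling lay upstream is not given in the sources used here, and detection calls were not used. The deposited signals have a mean of 200.0 on every array once the lowest and highest 2% are left out. Array medians spanned 0.16 log2, under the limit of 0.5 for normalising further, so none was applied.

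The scale of all fits was log2(signal + 16). The 64 control probe sets and the dimmest 25% of the others were left out, and 17059 went into 1 limma fit (lmFit, then eBayes, version 3.58.1 under R 4.3.3). Its p-values are two-sided, adjusted by Benjamini and Hochberg's method over all of them, and called under 0.05. The fit was also run on simulated data whose noise was independent between arrays. In the deposited signals arrays of the same letter varied together, so that run is no check on the calls made here. The number of arrays limits the precision. In the platform annotation, 13513 probe sets had 1 gene, 503 had several and 13436 matched a locus of the RefSeq table (TAIR10.1). The other 8794 are unnamed here.

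The genes and lists were chosen with earlier results of these data known. Named were the 3 genes, every locus from AT3G28600 to AT3G29000 with its own probe set, all tested pollen loci, up to 4 loci of each other list with the smallest p, and the 10 and 5 loci most alike. Over the tested probe sets, deviations from the group means had r = 0.57 between the a arrays, 0.36 between the b arrays and 0.38 between the c arrays. All are above 0.1, so the letters were taken as pairs in the alternative with a block. The alternatives were pseudocounts of 1 and 64, quantile normalisation, median centring, no filter, a filter of 50%, the block and each array left out. A fit without the a arrays of both groups was added once the data had been seen.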

Additional observations from a re-analysis of the deposited data

Results flagged for a closer look

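A control probe set that reads 25S ribosomal RNA and entered no comparison gave 3079.6 on overexpressor array a, against 11.1 to 32.6 on the wild-type arrays. It read 29.6 on overexpressor b and 51.2 on c. Without overexpressor replicate a the log2 differences were -4.12 for AT3G28750, -2.13 for AT3G28780 and -3.83 for AT3G28830.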

How the results depend on the processing

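The log2 differences of AT3G28750 and AT3G28830 moved under every alternative by less than the SD of their overexpressor arrays, 1.55 and 1.25. Some of these moves were larger than the SD of their wild-type arrays, 0.48 and 0.52. The difference of AT3G28780 moved by more than its SDs, 0.45 and 0.38, only with a pseudocount of 1 (-3.56) or 64 (-1.16). Its overexpressor signals lie near or below the value added, which makes the difference depend on that value. Of 370 probe sets lower and 23 higher, a pseudocount of 1 gave 209 and 13, leaving out the lowest 50% gave 180 lower, the replicate block gave 570 and 71, and leaving out both arrays lettered a gave 84 and 9. With 1 array left out the lower count ran from 30 to 386 and the higher count from 0 to 16. Without wild-type replicate b it was 30 and 0 (821 and 345 at an unadjusted p under 0.05 with limma). The 3 called neighbours numbered 0 to 3 with 1 array left out, and 2 or 3 otherwise. The 9 called pollen loci numbered 3 with a pseudocount of 1, 4 with no filter, 4 with the lowest 50% left out, 0 without both arrays lettered a, and 0 to 8 with 1 array left out. Of 54 named probe sets other than the 3 genes, 26 were called, and 238 of their 351 values under alternatives stayed past the threshold with 0 reversed. None of the 25 tested passed without wild-type replicate b, and without both arrays lettered a 2 of 25 did, AT3G28790 and AT3G28980. The replicate block changed no call among the named ones. The 28 uncalled passed under 0 of 377. The planned count of other DUF1216 loci was not run, because the tables used here carry no domain names. Where a setting has fewer arrays or tests fewer probe sets, that is part of its construction. Otherwise the cause was not tested.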
